A study of Homo sapiens with 8 samples.

Results

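The genes described here are 38 chemokines, cytokines and NF-kB response genes, chosen by gene symbol. Of these, 37 had a transcript cluster of their own among the 22465 genes measured that way on the arrays, a cluster being a set of probes read together as 1 value. The remaining member, the cytokine gene CSF2, has no expression value here because the annotation used pairs no cluster with that symbol alone. Among the 37, 26 encode secreted factors and 11 encode NF-kB components or other proteins that NF-kB induces.

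Human cells of 2 lines were profiled on Affymetrix Human Transcriptome Arrays after 24 h with the RWF extract, made from the root bark of Rauwolfia vomitoria, at 250 μg/ml or with vehicle. WPMY-1 is a myofibroblast line from prostate stroma and BPH-1 is an epithelial line from benign prostatic hyperplasia, both established lines grown in culture. The 4 groups were RWF-treated WPMY-1, vehicle-treated WPMY-1, RWF-treated BPH-1 and vehicle-treated BPH-1 cells, with 2 arrays each, and what the vehicle was is not given in the sources used here. The lines were kept in different media, DMEM for WPMY-1 and RPMI for BPH-1, so line and medium cannot be told apart, and each line stands for 1 cell population. Each value below is a deposited log2 value, so a difference of 1 is a 2-fold change, and levels of different genes were not compared because brightness depends on the probes.

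The arrays fitted the labels of the lines. In vehicle, 10 of 11 measured epithelial markers were lower and 13 of 13 stromal ones higher in WPMY-1 than in BPH-1 cells (limma, adjusted p under 0.05), with median differences of -3.09 and 1.88. Replicate arrays had correlations of 0.995 to 0.997 over all clusters. Whether replicate arrays came from separate cultures is not given by the labels, and the p-values therefore cover the spread between arrays alone, which may be technical. In bulk RNA, a change in the number of cells that express a gene and a change in RNA per cell cannot be told apart.

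NF-kB is a family of transcription factors that inhibitor proteins hold in the cytoplasm of resting cells. Signals from cytokines such as IL-1 and TNF lead to the loss of the inhibitors, and the subunits then enter the nucleus and switch on chemokines, cytokines, adhesion molecules and, as feedback, their own inhibitors. Chemokines are small secreted proteins that draw leukocytes along a gradient. In the enlarged prostate, inflammatory infiltrates are common, and both the epithelium and the stroma can release such factors.

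The first question was how the lines differed in these genes before RWF. In vehicle-treated cells, 22 of 37 members differed between the lines at an adjusted p under 0.05 (limma over all 67528 clusters, Benjamini-Hochberg), with 10 higher and 12 lower in WPMY-1. Among all clusters, 7.82% were higher and 8.82% lower, and among the 22465 named genes, each read from its brightest cluster as the members were, 12.5% and 12.7%. The median absolute difference was 0.62 over the members against 0.15 over the named genes. Secreted factors divided evenly, with 8 higher and 8 lower of 26.

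CC chemokines act mainly on monocytes and lymphocytes. CCL2, the monocyte attractant, read 11.03 and 10.74 in vehicle-treated WPMY-1 cells, against 4.13 and 4.13 in vehicle-treated BPH-1 cells. The difference of 6.76 (95% interval 6.51 to 7.0) was 108-fold, and CCL2 had the largest absolute difference of the 37 members. In BPH-1 its level lay below 4.57, the median of all cluster means, where a value can be background, and folds against such a level are uncertain. CCL7, a close relative of CCL2, was also higher in WPMY-1 by 0.92, although its level was below that median in every group. CCL20, which attracts cells that carry CCR6, was lower in WPMY-1, at 3.41 and 3.56 in vehicle-treated WPMY-1 cells against 5.59 and 5.41 in vehicle-treated BPH-1 cells. That difference was -2.02 (limma, adjusted p = 0.000692), and the arrays of the lines did not overlap, with WPMY-1 below the median cluster level. CCL5, a T cell attractant, differed by -0.02 with an interval from -0.19 to 0.14. Its level in both vehicle groups lay just below the median cluster level, where a value can be background.

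CXCL12, the ligand of CXCR4 and a product of fibroblasts in many tissues, was higher in the stromal line. It read 7.18 and 6.94 in vehicle-treated WPMY-1 cells, against 4.35 and 4.57 in vehicle-treated BPH-1 cells, a log2 difference of 2.60 (SE 0.12) with BPH-1 just below the median cluster level. The neutrophil-attracting CXC chemokines, which act through CXCR1 and CXCR2, did not share a direction. CXCL8 (interleukin 8) was higher in WPMY-1 by 1.21 and CXCL1 was lower by -1.10 (limma, adjusted p = 5.9e-05 and 0.000169). CXCL2, CXCL3, CXCL5 and CXCL6 did not pass, with differences of -0.26, -0.16, 0.06 and -0.03. The interval for CXCL6 ran from -0.26 to 0.21 and that for CXCL5 from -0.39 to 0.51. These CXC genes are paralogs that may share probes, which was not checked, so their separate values are uncertain. CXCL16, which has a membrane-bound form, was 2.85-fold lower in WPMY-1 cells (log2 difference -1.51). The interferon-inducible CXCL11 was lower by -0.37, while CXCL10 (-0.62) and CXCL14 (0.03) did not pass, and CXCL10 and CXCL11 were below the median cluster level in every group.

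IL-1 family ligands, which signal through MyD88 to NF-kB, split by line. IL1A, an alarmin stored in epithelial cells, read 3.21 and 3.40 in vehicle-treated WPMY-1 cells, against 8.31 and 8.69 in vehicle-treated BPH-1 cells. This was 36.6-fold lower in WPMY-1 (log2 difference -5.19, 95% interval -5.61 to -4.78), with the WPMY-1 values below the median cluster level. IL18, an inducer of interferon gamma, read 5.07 and 4.89 in vehicle-treated WPMY-1 cells and 8.68 and 8.37 in vehicle-treated BPH-1 cells, which was 11.7-fold lower. IL1B, the secreted inflammasome product, was also lower by -1.32 (limma, adjusted p = 0.0259). IL33, a nuclear alarmin of structural cells, ran the other way, at 6.68 and 5.84 in vehicle-treated WPMY-1 cells against 2.77 and 2.91 in vehicle-treated BPH-1 cells. That log2 difference was 3.42 with an SE of 0.25, the BPH-1 values lay below the median cluster level, and the pair of WPMY-1 arrays lay further apart than those of BPH-1.

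Among the IL-6 family ligands, which share the receptor subunit gp130, IL6 was higher in WPMY-1 by 1.15 and IL11 by 0.52, and LIF was lower by -1.11 (limma, adjusted p = 0.00117, 0.00807 and 0.000264). CSF1, the growth factor of macrophages, was higher by 0.43. CSF3, which drives neutrophil production, differed by -0.26 (limma, adjusted p = 0.13), IL24 by -0.02 and IL32 by 0.18, and none of these passed.

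Of the 4 NF-kB subunits, 1 passed. NFKB2, the precursor of the noncanonical subunit, was lower in WPMY-1 by -0.48 (limma, adjusted p = 0.0267), and NFKB1 (0.05), RELA (-0.24) and RELB (-0.17) did not pass. The feedback inhibitors TNFAIP3, the ubiquitin-editing enzyme known as A20, and NFKBIA, which encodes the inhibitor IkB alpha, were lower by -1.44 and -1.0 in WPMY-1. NFKBIZ, a nuclear cofactor of NF-kB, differed by 0.24 with an interval from -0.09 to 0.57.

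Of the 4 induced genes, 3 were called. PTGS2, the inducible prostaglandin synthase, read 4.07 and 3.90 in vehicle-treated WPMY-1 cells, against 7.89 and 8.29 in vehicle-treated BPH-1 cells, a log2 difference of -4.11 with WPMY-1 below the median cluster level. VCAM1, an adhesion molecule for lymphocytes and monocytes, read 5.43 and 5.90 in vehicle-treated WPMY-1 cells and 3.13 and 3.30 in vehicle-treated BPH-1 cells, a log2 difference of 2.45 with BPH-1 below that level. TNFAIP2, a TNF-induced gene, was higher by 0.81. ICAM1, the adhesion molecule that binds leukocyte integrins, differed by -0.11 with an interval from -0.40 to 0.19, so in vehicle the lines could not be separated on it.

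**Figure D1:**
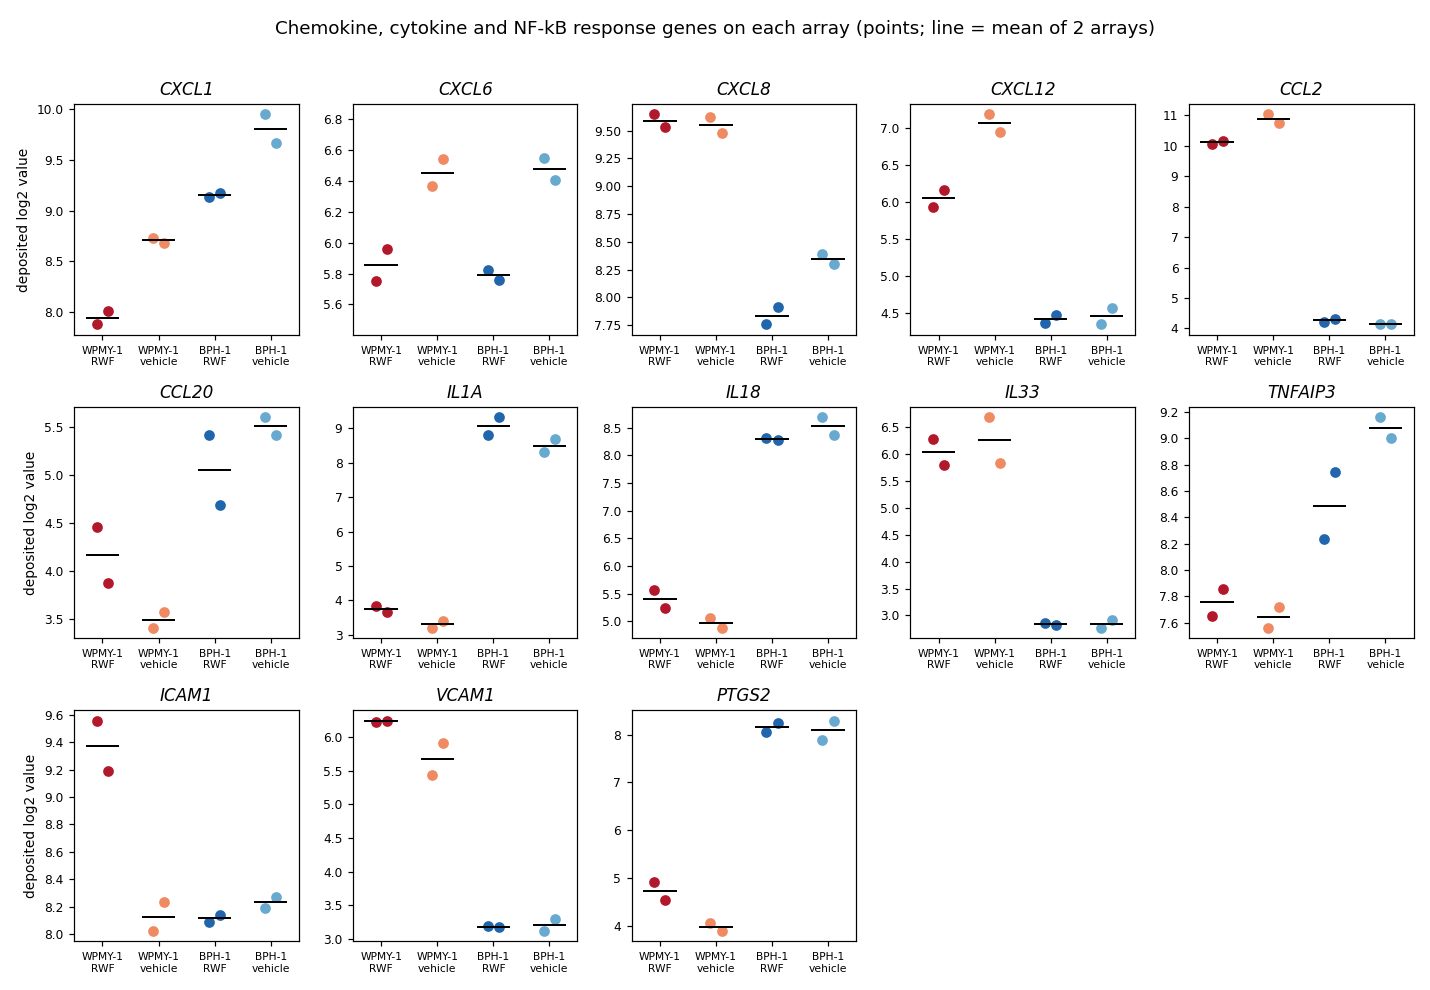
Deposited log2 values of 13 members on each array (points), with the mean of 2 arrays as a line, for RWF-treated and vehicle-treated WPMY-1 cells and RWF-treated and vehicle-treated BPH-1 cells; each panel has its own axis. CCL2, CXCL12, IL33 and VCAM1 lie higher in WPMY-1 and IL1A, IL18 and PTGS2 higher in BPH-1, and ICAM1 stands apart in RWF-treated WPMY-1 cells at 9.56 and 9.19.

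The second question was what RWF did in the stromal line. In WPMY-1 cells RWF raised ICAM1 and lowered CXCL12, CCL2, CXCL1 and CXCL6, so 5 of 37 members passed an adjusted p under 0.05 (limma), 1 higher and 4 lower. Among all clusters, 0.625% were higher and 0.905% lower, and among named genes 0.89% and 1.1%. At an unadjusted p under 0.05, 8 of 37 members were higher and 4 lower, beside 10.7% and 8.36% of all clusters and 11.9% and 9.84% of named genes. This comparison and that of the lines in vehicle share the vehicle-treated WPMY-1 arrays. The 4 that fell are all secreted and the 1 that rose is a membrane protein.

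ICAM1 read 9.56 and 9.19 in RWF-treated WPMY-1 cells, against 8.03 and 8.23 in vehicle-treated WPMY-1 cells. The RWF arrays were both higher than either vehicle array, and the rise of 1.24 (SE 0.13) was 2.37-fold with an adjusted p of 0.00595 (limma). It passed in each of the 8 fits that left out 1 array, with differences from 1.06 to 1.43. CXCL12 read 5.93 and 6.16 in RWF-treated WPMY-1 cells and 7.18 and 6.94 in vehicle-treated WPMY-1 cells. The fall was 2.02-fold (log2 difference -1.02 with an SE of 0.12 and, in limma, an adjusted p of 0.00998), and CXCL12 stayed above its 4.37 and 4.47 in RWF-treated BPH-1 cells. CCL2 read 10.07 and 10.16 in RWF-treated WPMY-1 cells, against 11.03 and 10.74 in vehicle-treated WPMY-1 cells. This was a fall of 1.71-fold (log2 difference -0.77, SE 0.11, limma adjusted p = 0.018).

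CXCL1 read 7.88 and 8.01 in RWF-treated WPMY-1 cells, against 8.73 and 8.68 in vehicle-treated WPMY-1 cells. That was 1.70-fold lower (log2 difference -0.76, SE 0.11, limma adjusted p = 0.0174). CXCL6 read 5.75 and 5.96 in RWF-treated WPMY-1 cells and 6.37 and 6.54 in vehicle-treated WPMY-1 cells, 1.52-fold lower (log2 difference -0.60, SE 0.10, limma adjusted p = 0.0365). For all 4 falling chemokines the RWF arrays lay below the vehicle arrays, as in 19.2% of all clusters and 20.8% of named genes. Fitted on the WPMY-1 arrays alone, CCL2 and CXCL6 missed the threshold (limma adjusted p = 0.0769 and 0.108). The call for CXCL6 was lost whichever array was left out (difference -0.71 to -0.50, limma adjusted p 0.0611 to 0.165). Without RWF array 1 of WPMY-1, CXCL12 (-0.90, adjusted p = 0.0702), CCL2 (-0.73, adjusted p = 0.11) and CXCL1 (-0.69, adjusted p = 0.109) also missed the threshold in limma. The same 3 missed it without vehicle array 1 of WPMY-1, at -0.90, -0.62 and -0.73, and CCL2 (-0.81) and CXCL1 (-0.83) did so without RWF array 2 of WPMY-1.

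The upstream sequence of the members that moved is shown for its NF-kB motifs. Windows of 250 bases before the transcription start were taken from RefSeq on GRCh38.p14 for CXCL6 at chr4:73836428-73836677, CXCL1 at chr4:73869143-73869392, ICAM1 at chr19:10270870-10271119, all on the forward strand, and CXCL12 at chr10:44385098-44385347 on the reverse strand. Capitals mark a match to the kB consensus, which extends by 1 base where 2 matches overlap, and in ICAM1 a match to GGAANTTCC. The table has no entry for CCL2.
CXCL6: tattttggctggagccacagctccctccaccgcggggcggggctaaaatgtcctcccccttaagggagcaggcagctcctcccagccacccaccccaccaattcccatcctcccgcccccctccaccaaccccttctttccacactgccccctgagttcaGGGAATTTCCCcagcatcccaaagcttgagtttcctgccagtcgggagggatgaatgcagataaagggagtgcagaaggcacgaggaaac
CXCL1: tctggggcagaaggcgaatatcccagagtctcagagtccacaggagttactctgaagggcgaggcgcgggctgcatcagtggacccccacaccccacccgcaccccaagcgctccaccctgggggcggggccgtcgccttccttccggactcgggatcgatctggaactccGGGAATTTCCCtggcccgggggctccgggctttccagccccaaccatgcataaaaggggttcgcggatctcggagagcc
ICAM1: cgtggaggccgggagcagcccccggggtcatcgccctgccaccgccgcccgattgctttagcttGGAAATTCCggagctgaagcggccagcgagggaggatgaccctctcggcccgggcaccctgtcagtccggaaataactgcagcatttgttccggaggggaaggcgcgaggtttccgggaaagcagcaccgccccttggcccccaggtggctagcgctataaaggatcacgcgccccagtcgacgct
CXCL12: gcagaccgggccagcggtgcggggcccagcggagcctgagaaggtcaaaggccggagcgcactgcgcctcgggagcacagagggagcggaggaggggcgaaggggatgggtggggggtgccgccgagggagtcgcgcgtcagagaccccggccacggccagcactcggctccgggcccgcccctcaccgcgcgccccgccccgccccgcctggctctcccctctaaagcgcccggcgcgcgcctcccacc
CXCL6 and CXCL1 hold the same stretch, which begins 90 and 79 bases before the start. The ICAM1 window holds no match to the consensus and 1 to GGAANTTCC, beginning 186 bases before the start, and the CXCL12 window holds neither. Both strands were searched, and the letter strings overlap each other in part of their matches. Of all 35116 windows, 9.96% held the consensus and 0.826% held GGAANTTCC, and of the 38 windows that belong to 30 members, CSF2 among them, 47.4% and 31.6% did. CXCL5, CXCL2 and CXCL3, relatives of CXCL6 and CXCL1, also held both. GGAANTTCC was added after the values were seen, and the members were chosen in part as NF-kB response genes. The shares of windows are therefore a description alone. A match describes letters and was not tested for binding in these cells.

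No other secreted factor passed in WPMY-1. CCL20 read 4.45 and 3.87 with RWF in WPMY-1 cells, against 3.41 and 3.56 with vehicle, a difference of 0.68 (95% interval 0.11 to 1.24, limma adjusted p = 0.197). These levels lay below the median cluster level, where a value can be background. CXCL8 differed by 0.04 with an interval from -0.18 to 0.26, and the sign of its value turned to -0.02 under median centring. CXCL5 differed by -0.42 (interval -0.87 to 0.03), and CXCL2 and CXCL3 by -0.09 and 0.04, with the sign of CXCL3 turned under both other scalings. IL1A, at 3.83 and 3.66 in RWF-treated against 3.21 and 3.40 in vehicle-treated WPMY-1 cells, differed by 0.44 (limma adjusted p = 0.241). Its WPMY-1 levels also lay below the median cluster level. IL18 read 5.57 and 5.25 in RWF-treated and 5.07 and 4.89 in vehicle-treated WPMY-1 cells, a difference of 0.43 (limma adjusted p = 0.155). IL1B, IL24, IL32, IL33, the IL-6 family ligands, the colony-stimulating factors and the remaining chemokines lay between -0.22 and 0.25, and none passed.

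**Figure D2:**
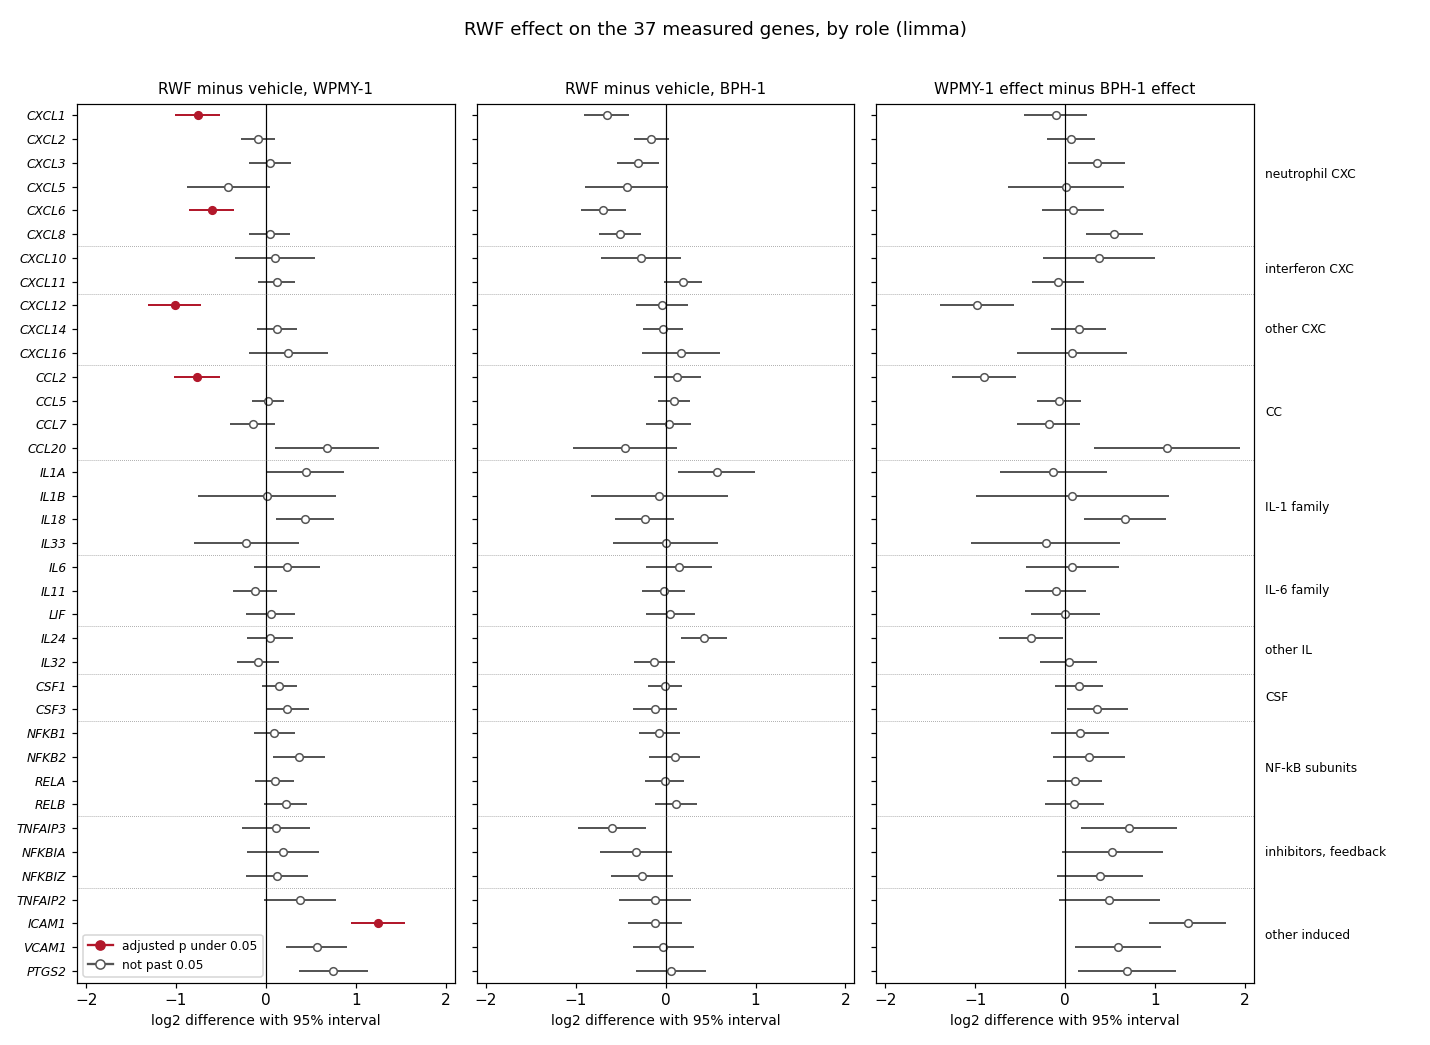
Log2 difference between RWF and vehicle for the 37 measured members, grouped by role, in WPMY-1 cells (left) and BPH-1 cells (middle), and the WPMY-1 effect minus the BPH-1 effect (right), each with its 95% interval from limma; filled red points passed an adjusted p under 0.05. CXCL1, CXCL6, CXCL12 and CCL2 (lower) and ICAM1 (higher) passed in WPMY-1, and no member passed in the other panels.

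NF-kB components and induced genes had positive differences in WPMY-1 for all 11 members, from 0.09 to 1.24 with a median of 0.22, also after quantile normalization and median centring. Positive differences were common in this comparison, at 59.1% of all clusters and 61.9% of named genes, with medians of 0.04 and 0.05. Only ICAM1 passed the adjusted threshold in this group. The group leaves out the 26 secreted factors, although NF-kB also switches on chemokines and cytokines. Of those 26, 16 differences were positive and 10 negative in WPMY-1, and 4 were called lower. After median centring, 10 of them were positive and 16 negative. PTGS2 read 4.92 and 4.54 in RWF-treated WPMY-1 cells, against 4.07 and 3.90 in vehicle-treated WPMY-1 cells, and missed it at 0.75 (limma adjusted p = 0.0675). VCAM1 read 6.22 and 6.24 in RWF-treated and 5.43 and 5.90 in vehicle-treated WPMY-1 cells and missed it at 0.56 (limma adjusted p = 0.098). For both genes all RWF arrays lay above the vehicle arrays, as in 31.4% of all clusters and 37.7% of named genes. The vehicle level of PTGS2 in WPMY-1 lay below the median cluster level. PTGS2 passed in 3 of 17 alternatives (limma adjusted p = 0.0396 with dim clusters left out, 0.0312 with 1 cluster per gene and 0.0309 with the mean of a gene's clusters). NFKB2 (0.36) and TNFAIP2 (0.38) were next, and RELB, RELA and NFKB1 differed by 0.22, 0.10 and 0.09. The inhibitors and feedback genes NFKBIA, NFKBIZ and TNFAIP3 differed by 0.19, 0.12 and 0.11, with adjusted p from 0.56 to 0.728 in limma.

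The third question was what RWF did in the epithelial line. In BPH-1 cells no member passed (0 of 37, limma adjusted p under 0.05), and among all clusters 0.00889% were higher and 0.0311% lower, against 0.0134% and 0.0089% of named genes. At an unadjusted p under 0.05, 2 members were higher (IL1A and IL24) and 5 lower (CXCL6, CXCL1, CXCL8, TNFAIP3 and CXCL3), beside 2.74% and 3.09% of all clusters. Among named genes these shares were 3.53% and 2.81%. The 6 neutrophil-attracting CXC chemokines all had negative differences, from -0.69 to -0.16, and for each of them both RWF arrays lay below both vehicle arrays. Over all clusters 53.5% of differences were negative and 19.1% had arrays apart in that way, and as paralogs that may share probes the 6 genes need not be separate readings.

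CXCL6 read 5.82 and 5.76 in RWF-treated BPH-1 cells, against 6.55 and 6.41 in vehicle-treated BPH-1 cells. The difference was -0.69 (95% interval -0.93 to -0.45, limma adjusted p = 0.101), and it passed when the fit held 1 cluster per gene (limma adjusted p = 0.0417). CXCL1 read 9.13 and 9.17 in RWF-treated and 9.95 and 9.67 in vehicle-treated BPH-1 cells, a difference of -0.66 (limma adjusted p = 0.118). CXCL8 read 7.75 and 7.92 in RWF-treated BPH-1 cells, against 8.39 and 8.30 in vehicle-treated BPH-1 cells, a difference of -0.51 (limma adjusted p = 0.196). In each of these 3 genes the gap between the groups exceeded the gap between arrays of 1 group, though the adjusted test was not passed. CXCL5, CXCL3 and CXCL2 differed by -0.43, -0.31 and -0.16.

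TNFAIP3 read 8.23 and 8.74 in RWF-treated BPH-1 cells and 9.16 and 9.0 in vehicle-treated BPH-1 cells, a difference of -0.59 (limma adjusted p = 0.492). NFKBIA differed by -0.33 and NFKBIZ by -0.26, so the 3 inhibitors and feedback genes were all negative in BPH-1 and none passed. The arrays of NFKBIA overlapped between the groups. IL1A read 8.82 and 9.32 with RWF in BPH-1 cells, against 8.31 and 8.69 with vehicle, a difference of 0.57 (limma adjusted p = 0.623). IL24, a cytokine of the IL-10 family, differed by 0.42 and was below the median cluster level in every group. CCL20 read 5.42 and 4.68 in RWF-treated and 5.59 and 5.41 in vehicle-treated BPH-1 cells, and its groups overlapped at a difference of -0.45.

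The genes called in WPMY-1 had small differences in BPH-1 apart from CXCL1 and CXCL6. ICAM1 read 8.09 and 8.14 in RWF-treated BPH-1 cells, against 8.19 and 8.27 in vehicle-treated BPH-1 cells, a difference of -0.12 (interval -0.41 to 0.17). CXCL12 differed by -0.04 and CCL2 by 0.13, at levels below the median cluster level in BPH-1 for both. PTGS2, at 8.06 and 8.24 in RWF-treated and 7.89 and 8.29 in vehicle-treated BPH-1 cells, differed by 0.06. VCAM1 (-0.03), TNFAIP2 (-0.11), NFKB1 (-0.07), RELA (-0.01), NFKB2 (0.10) and RELB (0.12) completed the NF-kB components and induced genes, where 8 of 11 differences were negative.

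The fourth question was whether the RWF effect differed between the lines, tested as the WPMY-1 effect minus the BPH-1 effect. No member passed (0 of 37, limma adjusted p under 0.05), beside 0.00592% of all clusters. At an unadjusted p under 0.05, 9 members were higher and 3 lower, beside 5.2% and 3.41% of all clusters and 4.36% and 3.69% of named genes. ICAM1 had the largest difference, 1.36 (95% interval 0.95 to 1.78, limma adjusted p = 0.117), and it passed when the fit held 1 cluster per gene (limma adjusted p = 0.0341). For CXCL12 the value was -0.98 (limma adjusted p = 0.232) and for CCL2 it was -0.90 (limma adjusted p = 0.212). For CXCL8 it was 0.55 (interval 0.24 to 0.86, limma adjusted p = 0.377), for CCL20 1.13 (adjusted p = 0.455) and for IL18 0.67 (adjusted p = 0.438). None of these is shown to differ between the lines at the adjusted threshold. Levels lay below the median cluster level for CCL20 in WPMY-1 and for CXCL12 and CCL2 in BPH-1.

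For CXCL1 and CXCL6 the values were near 0, at -0.10 (interval -0.44 to 0.24) and 0.09 (interval -0.25 to 0.43). All 11 NF-kB components and induced genes had positive values, from 0.10 for RELB to 1.36 for ICAM1, with a median of 0.49 against 0.04 over all clusters, of which 58.6% were positive, and the signs held after quantile normalization and median centring. TNFAIP3 (0.71), PTGS2 (0.69) and VCAM1 (0.59) reached an unadjusted p under 0.05 beside ICAM1, and NFKBIA (0.52), TNFAIP2 (0.49) and NFKBIZ (0.39) did not. The 26 secreted factors, counted apart, had 16 positive and 10 negative values, and 13 of each after median centring.

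After RWF the lines still differed in 23 of 37 members (limma, adjusted p under 0.05), 12 higher and 11 lower in WPMY-1, beside 7.86% and 8.77% of all clusters and 12.5% and 12.7% of named genes. ICAM1 was called higher in WPMY-1 after RWF and not in vehicle, at 9.56 and 9.19 in RWF-treated WPMY-1 cells against 8.09 and 8.14 in RWF-treated BPH-1 cells (log2 difference 1.26). NFKBIZ was called higher (0.63) and IL24 lower (-0.39) after RWF and not in vehicle, while NFKBIA (-0.48) and NFKB2 (-0.22), called in vehicle, missed the threshold after RWF (limma adjusted p = 0.1 and 0.294). The difference between effects did not pass for NFKBIZ, IL24, NFKBIA or NFKB2 (limma adjusted p = 0.634, 0.554, 0.595 and 0.685), nor for ICAM1. The difference for CCL2 was 5.86 after RWF against 6.76 in vehicle, and for CXCL12 it was 1.62 against 2.60. For CCL20 it was -0.89 after RWF (limma adjusted p = 0.0415) against -2.02 in vehicle. Leaving out 1 array ended that RWF call of CCL20 in 6 of 8 fits, with values from -1.26 to -0.52. Without RWF array 1 of BPH-1 it was -0.52, without RWF array 2 of WPMY-1 it was -0.60, and with 1 of the 4 vehicle arrays left out it was still -0.89, with adjusted p from 0.0554 to 0.0636 (limma).

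**Figure D3:**
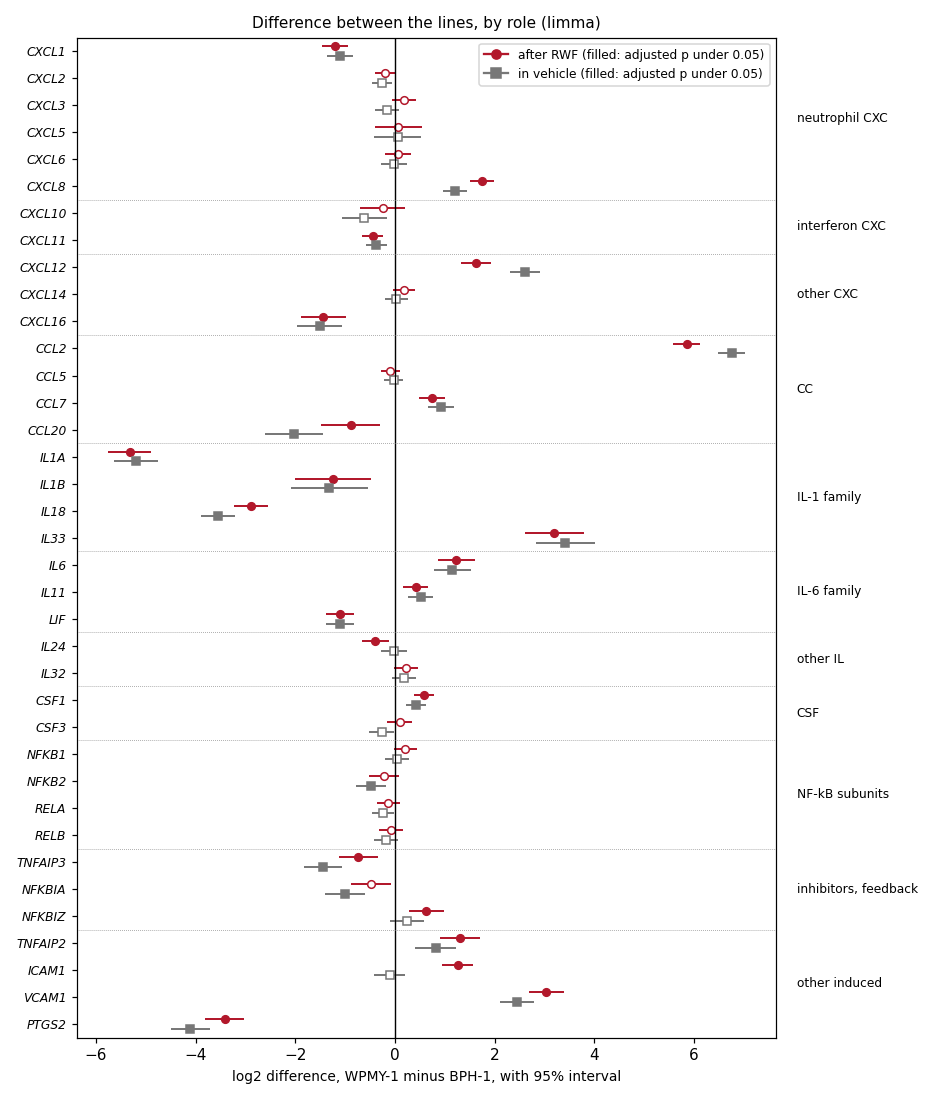
Log2 difference between the lines (WPMY-1 minus BPH-1) for the 37 measured members by role, with 95% intervals from limma, after RWF (red circles) and in vehicle (grey squares); filled symbols passed an adjusted p under 0.05. CCL2 at 5.86 and 6.76 and IL1A at -5.32 and -5.19 mark the ends of the range, and ICAM1 passed after RWF but not in vehicle.

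Receptors, signalling parts and other targets of the same pathways were read from lists of their own. Of 24 measured receptors for these ligands, none was called after RWF in either line. Among named genes, 0.89% were called higher and 1.1% lower after RWF in WPMY-1, and 0.0134% and 0.0089% in BPH-1. Of 21 measured NF-kB signalling parts, 1 was called in WPMY-1, the deubiquitinase CYLD, a brake on NF-kB signalling. CYLD read 7.34 and 7.44 in RWF-treated WPMY-1 cells, against 6.92 and 6.81 in vehicle-treated WPMY-1 cells, a rise of 0.53 (limma adjusted p = 0.0425). Of 20 other measured NF-kB target genes, GCH1, the first enzyme of tetrahydrobiopterin synthesis, and TLR2, a receptor for bacterial lipoproteins, were called in WPMY-1. GCH1 read 6.59 and 6.67 in RWF-treated and 5.41 and 5.52 in vehicle-treated WPMY-1 cells, a 2.24-fold rise (log2 difference 1.16, limma adjusted p = 0.00815). TLR2 read 4.42 and 4.41 in RWF-treated and 3.92 and 4.0 in vehicle-treated WPMY-1 cells, a rise of 0.46 at levels below the median cluster level. In BPH-1 no gene of these 3 lists was called. For the difference between effects, 21 of 24 receptors, 12 of 21 signalling parts and 16 of 20 other targets had positive values, beside 60.1% of named genes.

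Between the lines in vehicle, 3 of the 24 receptors were higher and 5 lower in WPMY-1, led by LIFR, the receptor of LIF, at 1.45 and IL1R2, the decoy receptor of IL-1, at -1.08, beside 12.5% and 12.7% of named genes. The ligand LIF and its receptor LIFR thus ran in opposite directions between the lines. Of the signalling parts, 3 were higher (CYLD, TRAF6 and TRAF3) and 5 lower, among them the subunit REL at -0.70 and the ubiquitin ligase BIRC2 at -1.10. Of the other targets, 3 were higher, led by the hyaluronan-binding TNFAIP6 at 2.75, and 11 lower, among them GCH1 at -1.68.

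Markers of cell types were read beside these results. In WPMY-1 cells 5 of 13 stromal markers were called lower after RWF (TAGLN, PRRX1, COL1A1, COL1A2 and COL6A3). Of named genes, 1.1% were called lower there and 0.89% higher. The sum of the log2 values of all 13 stromal markers was 97.8 to 98.7 with RWF against 102.5 to 102.6 with vehicle. CXCL12 and CCL2, both high in the stromal line, fell in the same arrays. Of the other members called higher in WPMY-1 in vehicle, VCAM1 (0.56), TNFAIP2 (0.38), IL6 (0.23), CSF1 (0.15) and CXCL8 (0.04) had positive RWF differences. IL33 (-0.22), CCL7 (-0.15) and IL11 (-0.13) had negative ones, and none of these passed. These members were picked because they were high in the vehicle-treated WPMY-1 arrays. The same arrays enter the RWF differences, so the signs are not independent of that choice. The part of the marker shift in the falls of CXCL12 and CCL2 was not tested. Of 7 leukocyte markers, CD14 was called higher in RWF-treated WPMY-1 cells, at 4.85 and 4.71 against 4.27 and 4.31 with vehicle. Those vehicle values lay below the median cluster level. In vehicle, CD14 was called lower in WPMY-1 than in BPH-1. The sum of the log2 values of all 7 leukocyte markers in WPMY-1 was 29.97 to 30.23 with RWF against 29.02 to 29.60 with vehicle. The defining leukocyte marker PTPRC read 2.43 and 2.44 in RWF-treated and 2.44 and 2.43 in vehicle-treated WPMY-1 cells, below the median cluster level. Of 11 epithelial markers none was called after RWF in WPMY-1, with 9 positive differences and a median of 0.13. No endothelial marker of 5 was called after RWF in either line.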

How the data were processed

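RNA from both lines was measured on 8 Affymetrix Human Transcriptome Arrays, 2 in each of 4 groups set by the labels. The authors deposited log2 values, 1 per transcript cluster and array, made by RMA according to the submitters' processing notes, which give no version. RMA normalizes the arrays to each other, so a shift of all genes would be partly removed. No detection call is given, so low values may be background. Precision is limited by the number of arrays.

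Clusters were named from the platform annotation (23781 with 1 symbol, 1543 with several and 42204 with none), and each gene was read from its brightest cluster with that symbol alone. All 37 measured members had exactly 1 such cluster, and RefSeq kept their symbols. The members and all lists were chosen with earlier results of these data known.

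All 67528 clusters were fitted as 4 groups with limma 3.58.1 in R 4.3.3, which left 4 residual degrees of freedom beside 4.34 from the prior. Adjusted p-values are Benjamini-Hochberg values over every cluster, with a threshold of 0.05. The fit was tested on simulated data. Every member is named. Values on every array are given for members called in an RWF comparison, the 6 largest differences in each line and the 8 largest between the lines in vehicle. As alternatives, arrays were rescaled (quantile normalization or median centring), dim clusters were dropped (35583 kept), and the fit was run with a replicate block, with trend and robust variances, within each line, and with 1 cluster or the mean of all clusters per gene. The methods' t-test was also run, and each array was dropped in turn, the lone array of that group then being taken to vary like the rest. The motif GGAANTTCC was added after the values were seen. Plots were made in Python 3.11.15 with matplotlib 3.10.9.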

Additional observations from a re-analysis of the deposited data

How the results depend on the processing

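Of the values of the 13 members described array by array, in the comparisons each was described for, 683 kept their direction and their side of the threshold, 45 lost the threshold, 7 gained it and 11 changed sign. With 2 arrays a group, the methods' t-test called 0 members after adjustment in WPMY-1 after RWF, in vehicle and after RWF between the lines, and at an unadjusted p under 0.05 it called 5 members in WPMY-1, 4 in BPH-1, and 20 and 18 between the lines in vehicle and after RWF. It called 0 clusters for RWF in either line and, between the lines, 6 in vehicle and 0 after RWF.

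Each line fitted alone gave 3 called members in WPMY-1 (CXCL1, CXCL12 and ICAM1) and 243 clusters, against 5 and 1033. Leaving out 1 array gave 1 to 5 members and 205 to 1042 clusters there, 1 to 22 clusters in BPH-1, 0 to 18 for the difference between effects, 7227 to 10748 between the lines in vehicle and 7262 to 11647 after RWF. The lowest member counts came without RWF array 1 or vehicle array 1 of WPMY-1 (ICAM1 alone in both). With dim clusters left out, 1874 clusters were called in WPMY-1, 73 in BPH-1 and 11 for the difference between effects.

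With 1 cluster per gene, or with the mean of a gene's clusters, CXCL6 was called in BPH-1 and ICAM1 for the difference between effects (1 member each), PTGS2 also passed in WPMY-1, and clusters called were 25 and 25 for that difference, 7021 and 7027 between the lines in vehicle, and 7028 and 7040 after RWF. Fewer features are tested there. In BPH-1, 27 clusters were called (6 higher, 21 lower), against 2 after quantile normalization (0 higher, 2 lower) and 17 after median centring (2 higher, 15 lower). In WPMY-1 median centring gave 270 higher and 823 lower, against 422 and 611. For the difference between effects, 4 clusters were called, and 0 after quantile normalization, median centring, a replicate block or trend and robust variances.

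Whether the replicate numbers pair the samples was not settled. Over all clusters, same-numbered deviations had a correlation of -0.03 between the WPMY-1 groups, 0.12 between the BPH-1 groups, 0.27 between the vehicle groups and 0.04 between the RWF groups. Over named genes these correlations were 0.01, 0.27, 0.34 and 0.03. A replicate block left the same 5 members called in WPMY-1, added CXCL10 between the lines in vehicle (23 members) and NFKBIA after RWF (24 members), and gave 1375 clusters in WPMY-1 after RWF and 7 in BPH-1.

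CXCL8 in WPMY-1 changed sign under median centring (-0.0161), and with arrays left out it ranged from -0.0314 to 0.11. Ranges that crossed 0 with an array left out were -0.15 to 0.0757 for CXCL12 and -0.14 to 0.26 for PTGS2 in BPH-1, and, for the difference between effects, -0.0142 to 0.192 for CXCL6, -0.38 to 0.12 for IL1A and -0.244 to 0.0355 for CXCL1. None of these values was called. The cause was not tested.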
